A study of Mus musculus with 2 samples.

Results

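The sites described here are CTCF peaks of newborn mouse forebrain that were found at the same place in both replicates but are missing from both lists of reproducible peaks. They were chosen from the list of 300000 peaks called on the pooled replicates by a signal value (the authors' peak strength, whose scale is not given in the sources used here) of 12 or more, by no overlap with the optimal or the conservative list, and by a peak summit within 50 bp in each of the 2 single-replicate peak lists. The optimal and conservative lists, of 56470 and 54779 peaks, hold peaks past a threshold on the irreproducible discovery rate (IDR), which ranks peaks in both replicates and keeps those whose ranks agree. In all, 17054 of the 300000 pooled peaks were members, and 17048 of them lay on chromosomes 1 to 19, X or Y and could be placed against genes and sequence.

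The data came from 1 group, chromatin immunoprecipitation with an antibody to CTCF from pulverised forebrain of mice of strain B6NCrl at postnatal day 0, with the tissue of several dissections pooled. Replicate libraries 1 and 2 were made, and there was no second condition. The labels number them as biological replicates, but both cite the same tissue sample and donor entry, so their spread may be technical. Sex was not recorded, and the read depth of the libraries is not given in the sources used here. Forebrain tissue holds neurons, glia and vessel cells together, and a peak present in few cells cannot be told apart from one weakly bound in many.

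CTCF recognises an asymmetric DNA motif through an array of zinc fingers and, with the cohesin ring, sets the anchors of chromatin loops and the borders of insulated domains. Strong CTCF sites are shared by most tissues, while weak sites vary more between cell types. In rodents, short interspersed elements of the B2 family, which are repeats copied through RNA, carry a version of the CTCF core motif and have spread it through the genome. Sequence was not used to choose the members, but the rule used the position of their summits, around which the motif was searched. The motif share is thus not fully separate from the rule.

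The sequences of 7 members with no mismatch to the 14-base CTCF core consensus show the motif in its usual forms. They are among the strongest such members by signal value, each read on the strand of the motif from the mm10 genome with 10 bases on either side, and capitals mark the core.
Stab2 intron, chr10:86976525-86976558, minus strand: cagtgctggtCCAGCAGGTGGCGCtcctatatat
Cdh13 intron, chr8:119300518-119300551, plus strand: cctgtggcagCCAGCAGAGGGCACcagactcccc
Pik3r6 intron, chr11:68549754-68549787, minus strand: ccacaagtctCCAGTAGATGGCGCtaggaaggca
Gm11077 promoter, chr6:140729448-140729481, plus strand: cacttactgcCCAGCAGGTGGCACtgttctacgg
Moxd2 neighbour, chr6:40893713-40893746, plus strand: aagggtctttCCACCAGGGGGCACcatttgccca
Jak2 neighbour, chr19:29203594-29203627, minus strand: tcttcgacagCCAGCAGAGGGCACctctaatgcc
Eif3b intron, chr5:140439614-140439647, minus strand: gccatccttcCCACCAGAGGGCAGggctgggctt

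The next sequence is shown because the commonest core match of the members lies in a repeat. It is the member on chromosome 7 that, among those with the commonest match, was like the most other members, 158 of them at 90% identity or more over 150 bases or more. Its signal values were 13.5 in the pooled list, 7.27 in replicate 1 and 5.81 in replicate 2. The bases after the core read like part of a B2 element, a name given here from general knowledge of that sequence, since no repeat annotation was used.
Repeat example, intergenic, chr7:44402498-44402621, minus strand: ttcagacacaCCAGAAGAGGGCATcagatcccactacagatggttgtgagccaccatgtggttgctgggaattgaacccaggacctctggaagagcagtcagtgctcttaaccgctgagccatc

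The 3 strongest members are shown because they stand far above all others and carry related sequences. Capitals again mark the core match, and each is read on the plus strand.
Number 1, chr1:195241543-195241623, plus strand: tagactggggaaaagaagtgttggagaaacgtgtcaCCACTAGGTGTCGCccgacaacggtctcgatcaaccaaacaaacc
Number 2, chr19:61199514-61199594, plus strand: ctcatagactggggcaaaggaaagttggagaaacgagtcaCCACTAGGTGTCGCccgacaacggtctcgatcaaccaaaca
Number 3, chr19:61266566-61266646, plus strand: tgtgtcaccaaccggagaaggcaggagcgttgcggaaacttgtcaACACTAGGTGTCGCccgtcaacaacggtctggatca

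Lined up on the core without gaps, the strongest and the second strongest shared 51 of 54 bases, including all 14 of the core. The third shared 37 of 54 bases with the strongest and 35 of 54 with the second, and 13 of the 14 core bases with each. The exact core of the first 2 sites, CCACTAGGTGTCGC, occurred at 2 members, at 0 peaks of the other 2 sets described below and at 16 of the 55896 optimal-list peaks of signal value 12 or more.

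Among pooled peaks of 12 or more, members were most frequent at the lowest values. Of the 300000 pooled peaks, 89682 had a signal value of 12 or more, and 61569 of these overlapped an IDR list. The remaining 28113 split into the 17054 members, 5674 peaks with a summit within 50 bp in replicate 1 alone, 4578 in replicate 2 alone and 807 in neither. Each member was matched to a different peak in each replicate list. Of pooled peaks between 12 and 15, 50.3% were members and 3.604% overlapped an IDR list. Between 15 and 20, 47.4% were members and 30.5% overlapped an IDR list, and between 20 and 30 the shares were 14.8% and 81.6%. At 30 or more, 134 of 45024 peaks, 0.298%, were members.

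**Figure D1:**
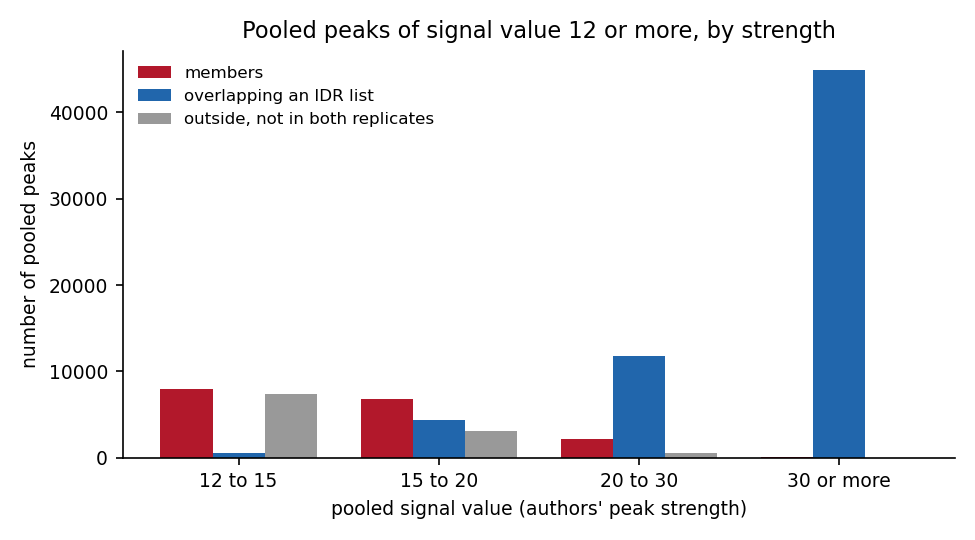
Number of pooled peaks (vertical axis) in 4 bands of pooled signal value (horizontal axis), for members, peaks overlapping an IDR list and peaks outside both lists without a summit in both replicates. The 8021 members between 12 and 15 outnumber the 575 peaks in an IDR list there, while at 30 or more 134 members stand against 44871.

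These signal values chose the members and are given as a description. The members had a median pooled signal value of 15.2, with 5% below 12.3, 5% above 23.6 and a highest value of 252. In the replicate lists their medians were 7.53 (3.20 to 129.8) in replicate 1 and 6.59 (2.81 to 122) in replicate 2. Their median rank was 72850 in the pooled list, 82410 in replicate 1 and 82154 in replicate 2, each out of 300000. The deposited −log10 q-value of the members had a median of 2.93 in the pooled list, and 60.6% of them had a q-value under 0.05 in both replicates, against 89.98% of 4529 optimal-list peaks with pooled values from 12 to 23.6 and summits in both replicates. Just inside the threshold, members in introns of Kcnq1, Tex14 and Meis1 had pooled values of 12.0005, 12.0008 and 12.0014, with 5.48, 4.78 and 3.30 in replicate 1 and 5.02, 8.24 and 7.52 in replicate 2. Just outside it, peaks near Rbm38, in Fyb2 and at Ccn3 had 11.9998, 11.9989 and 11.9986, with 7.22, 7.38 and 5.81 in replicate 1 and 5.18, 3.07 and 5.32 in replicate 2.

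The 2 replicate values of a member are described here with no test, since signal values chose the members. Across the 17054 members, Spearman's rho between replicate values was −0.359 and Pearson's r of log2 values was −0.287, whereas across 52496 optimal-list peaks with summits in both replicates rho was 0.946. These points share the 2 libraries and a pooled value that the rule and the IDR lists confine to a narrow band, and the pooled value was close to the sum of the replicate values, with a median ratio of 1.06, so the choice of sites by itself favours a negative sign. Of the 6328 optimal-list peaks of like strength, with pooled values from 12 to 23.6, the 4529 with summits within 50 bp in both replicates had a rho of −0.575. After removal of the median ratio, the log2 ratio of replicate 1 to replicate 2 had an SD of 0.87 in members, 0.80 in these 4529 peaks and 0.48 in the 52496. After the same removal, values lay 2-fold or more apart at 27.2% of members, against 21.2% of these 4529 peaks and 5.4% of the 52496. Among those members, 2341 had replicate 1 higher and 2300 had replicate 2 higher. At the other 72.8% of members the ratio lay within 2-fold of the median ratio.

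A high value in both replicates was rare. Of the 17048 placed members, 1215 (7.13%) reached 8 or more in both replicates and 119 (0.698%) reached 10 or more. Only 6 reached 15 or more in both, and the same 6 reached 20 or more. Among 52435 optimal-list peaks of signal value 12 or more with summits in both replicates, 93.8% reached 8 and 88.1% reached 10 in both. The IDR lists hold 99.7% of pooled peaks of 30 or more, so the rule itself leaves few members with high values in both replicates.

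**Figure D2:**
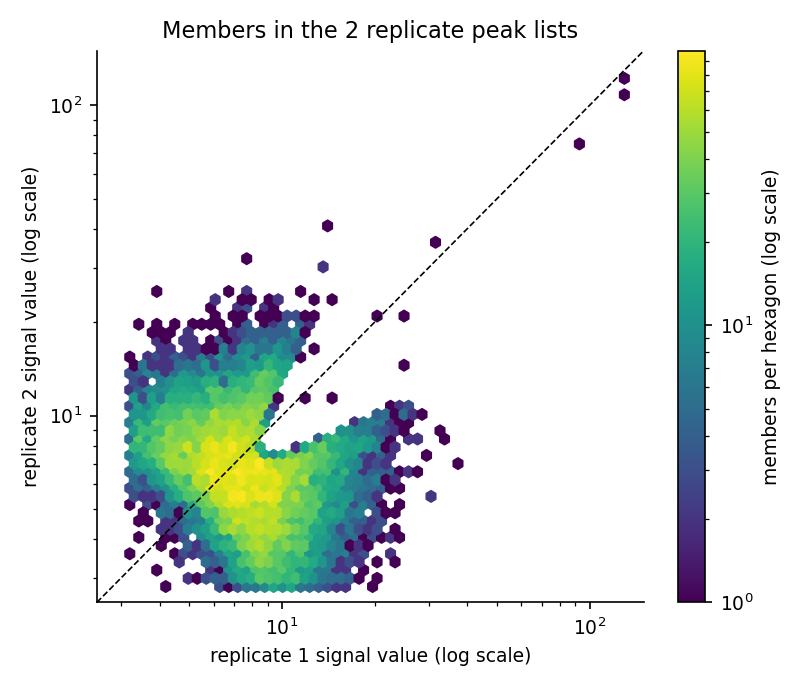
Signal value of each member in replicate 1 (horizontal axis, log scale) against replicate 2 (vertical axis, log scale); colour gives the number of members per hexagon on a log scale, and the dashed line marks equal values. For most members, 72.8%, the ratio of replicate values lies within 2-fold of its median over the members. At 6 sites both replicates reach 15 or more, 3 of these sites at pooled values from 164.8 to 252.

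The members with the largest ratios show how unequal the replicates could be. At C130060K24Rik, a member 143 bp from a transcript start, the values were 20.04 in replicate 1 and 2.86 in replicate 2. A member 101674 bp from the nearest start, that of Slc35f3, had 22.9 in replicate 1 and 3.47 in replicate 2 with no mismatch to the motif, and one 183146 bp from Fam173b had 19.8 and 3.02. In the other direction a member in an intron of Fcho1, an endocytosis gene, had 3.86 in replicate 1 and 25.04 in replicate 2. A member 12809 bp from Lfng, which modifies Notch receptors, had 3.48 and 20.2, and one in an intron of Gm20755 had 3.72 and 18.7. The Fcho1 and Lfng members lay 404 and 539 bp from the summits of IDR peaks of 226.9 and 189.7. The others with the largest ratios lay 33094 to 111990 bp from an IDR summit. With the median ratio removed, motif shares were close, at 42.2% of members 2-fold or more higher in replicate 1. The share was 42.9% of those 2-fold or more higher in replicate 2 and 41.6% of the rest.

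The 6 sites with high values in both replicates included the 3 strongest members. The strongest had a pooled value of 252, with 129.8 in replicate 1 and 122 in replicate 2, and lay 64867 bp from the nearest protein-coding start, that of the complement receptor gene Cr2. The second had 239 with 127 and 111 (15664 bp from Gm6020), and the third 164.8 with 90.9 and 73.2 (30463 bp from Gm21060). All 3 lay near the end of a chromosome, 130388, 132012 and 64960 bp from the last sequenced base.

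Another of the 6, at chr6:3201357-3201656, had a pooled value of 41.8, with 20.4 in replicate 1 and 20.2 in replicate 2, and lay 151506 bp from the first sequenced base. The 150 bases on each side of its summit were 96.7% identical to the annotated ribosomal RNA gene CT010467.1 on chr17:39846353-39848827. Of 89663 pooled peaks of 12 or more, it alone had 80% identity or more to that gene over 100 bases or more. No pooled peak of 12 or more was like the mitochondrial genome at this setting. That gene, of 2475 bases, was the only ribosomal RNA gene searched, so likeness of any site to other ribosomal RNA was not tested. The chromosome 6 member is shown because it carries no core match and resembles another kind of gene.
Ribosomal RNA-like member, chr6:3201467-3201547, plus strand: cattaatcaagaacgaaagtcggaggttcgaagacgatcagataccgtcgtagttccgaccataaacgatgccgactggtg

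The fourth strongest member, at chr18:3005784-3006083, had 69.1 with 31.6 and 35.3 and lay 5933 bp from the first sequenced base of its chromosome. The site at chr3:5860543-5860842 had 51.6 with 25.1 and 20.5 and no core match of 2 mismatches or fewer. Among all members 103 of 17048 (0.604%, 95% Wilson interval 0.499 to 0.732) lay within 500000 bp of a sequence end, against 0.695% (0.518 to 0.932) of optimal-list peaks of like strength. Over all pooled peaks of 12 or more the share was 0.616%.

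The CTCF core motif was present at the summits of 41.9% of placed members (7134, 95% Wilson interval 41.1 to 42.6), where a match has at most 2 mismatches on either strand and its centre within 50 bp of the summit. Over all 89663 placed pooled peaks of 12 or more the share was 56.6%. In windows 1000 bp to the left and to the right of the same members it was 3.36% and 3.13%. Intervals here and below cover counting error over sites only, since all sites come from the same 2 libraries. The 2 sets used for comparison were 6328 optimal-list peaks with signal values from 12 to 23.6, called like-strength peaks here, and 11055 pooled peaks of 12 or more outside both lists that lacked a summit in both replicates, called unreplicated peaks. Their medians of 20.3 and 13.97 differ from the members' 15.2, so comparisons are also given within bands of strength. There all optimal-list peaks of the band are used, while introns, exons and regions between genes are compared over all strengths only. Optimal-list peaks, unlike members, were not required to have a summit in both replicates, which 4529 of the 6328 like-strength peaks had. The part of this in the differences was not tested. Members and unreplicated peaks were told apart by summit position, and the motif was searched around the summit. The part of that in their motif difference was not tested either.

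Members carried the motif more often than unreplicated peaks, and their difference from like-strength peaks over all strengths depended on the rule for members. The share of 41.9% in members stood against 43.3% in like-strength peaks, a difference of −1.42 percentage points (95% Newcombe interval −2.85 to 0.0034), and against 29.5% in unreplicated peaks, a difference of 12.4 points (11.3 to 13.5). The difference from like-strength peaks was −3.06 points (−4.49 to −1.63) without replicate 1 and −3.69 points (−5.13 to −2.27) without replicate 2. It was 0.236 points (−1.29 to 1.76) with replicate summits within 25 bp. Here and below, without a replicate means that no summit was asked for in its list. The pooled values and IDR lists still came from both libraries. Between 12 and 15, members had the motif in 37.1% against 20.1% of the 284 optimal-list peaks there, 17.1 points more (11.9 to 21.4). Of these 284 peaks, 52.5% lay within 1000 bp of another IDR summit, against 10.5% of members in this band with an IDR summit that near. Between 15 and 20 the shares were 45.3% in members and 41.1% in optimal-list peaks (difference 4.12, 1.90 to 6.32). Between 20 and 30 they were 48.2% and 50.3% (difference −2.11, −4.47 to 0.259). Against unreplicated peaks the excess of members was 9.05, 13.4 and 14.6 points in these 3 bands, with every interval above 0.

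**Figure D3:**
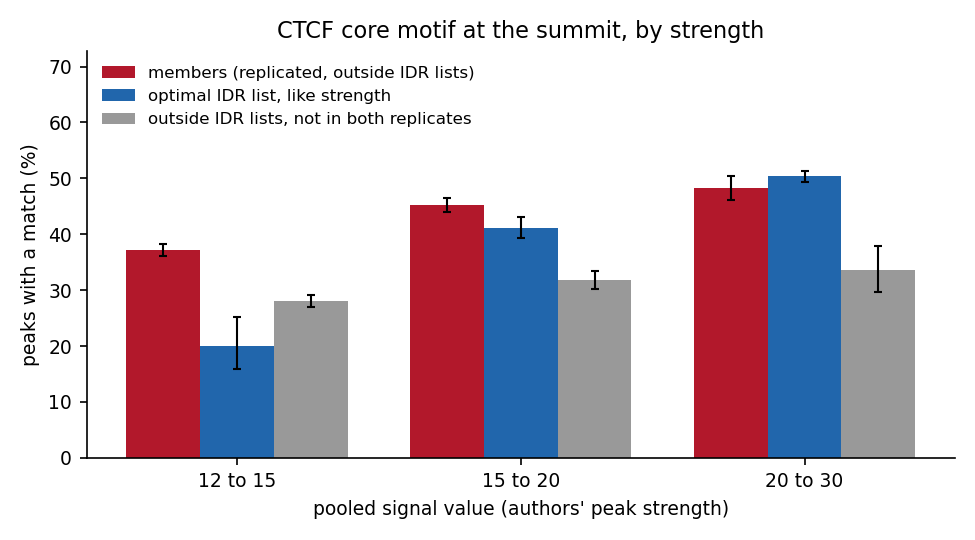
Share of peaks with a CTCF core match at the summit (vertical axis, %) in 3 bands of pooled signal value (horizontal axis) for members, optimal-list peaks and unreplicated peaks; bars give the share and lines its 95% Wilson interval. Members stand at 37.1%, 45.3% and 48.2%, above the unreplicated peaks in each band and above the optimal-list peaks in the first 2. Optimal-list peaks, unlike members, were not required to have a summit in both replicates.

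The matches of members were weaker than those of the optimal list at large. Of members, 135 (0.792%) matched with 0 mismatches, 1959 with 1 and 5040 with 2, while 9.56% of optimal-list peaks of 12 or more had 0 mismatches. Like-strength peaks had 0 mismatches in 1.31%, a difference of −0.520 points (−0.854 to −0.229) for members. The median distance from match centre to summit was 13.5 bp in members and in like-strength peaks and 6.5 bp in the optimal list, and 39.5% of the members' matches lay within 10 bp of the summit against 65.1% in the optimal list. Matches lay on the plus strand in 50.6% of members. The core position most often mismatched in members was position 5, counted from the 5′ end of the core, at 44.2% of matches against 29.8% in the optimal list. Position 14 followed with 31.9% against 19.3%, and position 8 was the least often mismatched, at 1.78%.

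The mismatches at position 5 came largely from a single form of the core. Of 3151 members with a mismatch there, 1960 (62.2%) opened with the 12 bases CCAGAAGAGGGC, as in the repeat example above. The commonest full match, CCAGAAGAGGGCAT, alone was found at 1050 members (6.16%), at 5.77% of like-strength peaks and at 4.69% of unreplicated peaks. CCAGAAGAGGGCAC followed with 351 members and CCAGAAGAGGGCGT with 293. The opening was chosen after the matches had been seen, so its counts are a description. It was present at 11.5% of members (11.03 to 11.98), 11.3% of like-strength peaks, 7.98% of unreplicated peaks and 9.07% of all pooled peaks of 12 or more. The difference from like-strength peaks was 0.230 points (−0.701 to 1.13) and that from unreplicated peaks 3.52 points (2.82 to 4.21). These shares are of all sites. Of sites with a core match, 27.47% had the opening in members, 26.04% in like-strength peaks and 27.08% in unreplicated peaks. The opening was thus about as frequent among the matches of members as among those of unreplicated peaks. Within bands, over all sites, members exceeded optimal-list peaks by 7.14 points (4.23 to 8.89) between 12 and 15. Only 10 of 284 optimal-list peaks there had the opening. The excess was 1.97 points (0.530 to 3.35) between 15 and 20. Between 20 and 30 the difference was −0.834 points (−2.31 to 0.752).

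**Figure D4:**
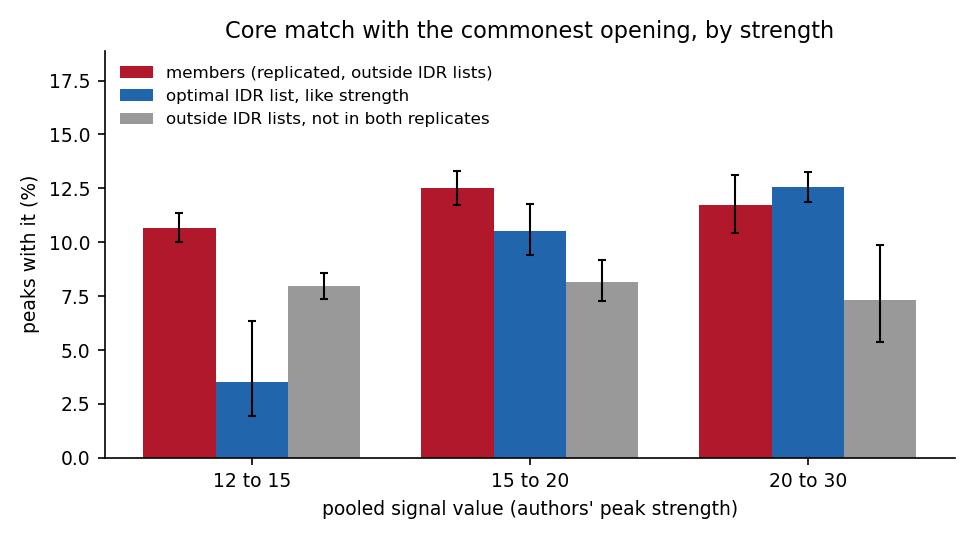
Share of peaks whose core match opens with the bases of the commonest match (vertical axis, %) in 3 bands of pooled signal value (horizontal axis) for members, optimal-list peaks and unreplicated peaks, with 95% Wilson intervals. Members stand at 10.7%, 12.5% and 11.7%, and optimal-list peaks at 3.52% (10 of 284 peaks), 10.5% and 12.5%.

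Members with this opening were repeat sites within and between genes. Of the 1960, 89.7% had a soft-masked summit (a base that the reference marks as repeat), 58.0% lay in introns, 38.5% between genes and 1.68% at promoters. The 5174 members with another form of the core were soft-masked in 23.1% and at promoters in 7.19%. The 32 bases at the summit occurred more than once in the genome for 23.9% of members with the opening and 2.73% of members with another core. Signal values were close, with pooled medians of 15.5 and 15.7, replicate 1 medians of 7.51 and 7.77 and replicate 2 medians of 6.81 and 6.71. The strongest member with the opening, 26071 bp from Mkrn1 on chromosome 6, had 35.8 in the pooled list, 27.5 in replicate 1 and 8.64 in replicate 2. Without these sites the motif was still present at 30.4% of members, against 32% of like-strength and 21.5% of unreplicated peaks.

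By alignment, 5.08% of all pooled peaks of 12 or more resembled the repeat example at 80% identity or more over 100 bases or more. Among members 1470 did so (8.62%, 8.21 to 9.05), against 6.62% (6.04 to 7.26) of like-strength peaks and 9.16% (8.64 to 9.72) of unreplicated peaks. Of these members 77.4% had the motif and 94.2% a soft-masked summit, and the corresponding motif share was 80.2% in like-strength peaks, 66.1% in unreplicated peaks and 87.7% in optimal-list peaks of 12 or more. In a stricter search, 571 members (3.35%) had 90% identity or more over 150 bases or more with another member, and 537 of the members were linked into 1 group. How many reads of such copies were placed at one copy or another is not given in the sources used here, and its part in these values was not tested.

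Repeats as a whole held 26.6% of the members' summits (4540), against 24.9% of like-strength peaks, 22.2% of unreplicated peaks and 20.4% of all pooled peaks of 12 or more. The difference from like-strength peaks was 1.69 points (0.428 to 2.94) and from unreplicated peaks 4.46 points (3.44 to 5.48). Without replicate 2 these were 0.590 points (−0.675 to 1.83) and 1.78 points (0.503 to 3.03), so the first no longer excluded 0. The first also held 0 at a signal value of 15 or more (1.18 points), with summits within 100 bp (0.837) and outside the optimal list alone (0.926). Within bands the first difference was 10.3 points between 12 and 15, where the optimal list had only 284 peaks. It was 3.27 points between 15 and 20, and its interval held 0 between 20 and 30 (−3.92 to 0.163). Soft-masked members had the motif in 65.1% and the others in 33.4%. Multi-copy summits, with more than 1 exact copy of the 32 central bases, were found at 828 members (4.86%), of which 73.7% had the motif. Over all pooled peaks of 12 or more the multi-copy share was 3.07%. It was 3.84% in like-strength peaks (difference 1.02, 0.425 to 1.57) and 5.44% in unreplicated peaks (difference −0.580, −1.12 to −0.0534). Without replicate 1 the second was 0.107 points (−0.520 to 0.695), and without replicate 2 it was −1.27 points (−1.99 to −0.595). Within bands, members exceeded optimal-list peaks by 2.64 points (0.0608 to 3.999) between 12 and 15, where 7 of 284 optimal-list peaks were multi-copy. The excess was 1.17 points (0.230 to 2.03) between 15 and 20. Between 20 and 30 the difference was −0.0605 points (−0.896 to 0.907), and against unreplicated peaks the interval held 0 in each of these 3 bands. The strongest multi-copy member lay in an exon of Gapvd1 and had 34.1 in the pooled list with 12.6 and 21.2 in replicates 1 and 2.

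Promoters, here the 1000 bp on either side of a protein-coding transcript start, held 13.8% of members (2348), below the 16.9% of all pooled peaks of 12 or more. Like-strength peaks had 20.9% there, so members were lower by 7.12 points (6.003 to 8.26), and unreplicated peaks had 21.2%, so members were lower by 7.44 points (6.52 to 8.36). Introns held 48.1% of members against 43.5% of like-strength peaks, regions between genes 33.2% against 30.4%, and exons 4.89% against 5.26%. Over all pooled peaks of 12 or more these shares were 44.5%, 33.4% and 5.29%, so the share between genes was close to that of the whole. The median member lay 23057 bp from a protein-coding start, and 20.1% lay over 100000 bp away. The promoter share of members was higher in stronger bands, with 12.2%, 13.5% and 19.6% up to a signal value of 30. Optimal-list peaks ran the other way, with 51.4%, 21.2% and 18.7%. The first of these came from 284 peaks only, of which 52.5% lay within 1000 bp of another IDR summit. Between 20 and 30 the difference held 0 (0.865 points, −0.962 to 2.78).

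CpG islands, stretches rich in unmethylated CpG that cover many promoters, followed the same pattern. A window of GC content over 0.5 and a ratio of observed to expected CpG over 0.6 was found at 9.13% of members (1557), 15.8% of like-strength peaks and 15.2% of unreplicated peaks, differences of −6.70 (−7.71 to −5.72) and −6.03 points (−6.83 to −5.24). Over all pooled peaks of 12 or more the share was 12.7%. Within bands the difference from optimal-list peaks was −30.7 points (−36.5 to −25.2) between 12 and 15, from the same 284 peaks. It was −6.56 points (−8.14 to −5.04) between 15 and 20. Between 20 and 30 it was 0.170 points (−1.43 to 1.87), while that from unreplicated peaks was −17.0 points (−21.3 to −12.8). The motif was found at 14.3% of CpG island-like members and at 44.6% of the others. At promoters it was found at 17.3% of members, in introns at 45.4% and between genes at 47.7%. Members without the motif were at promoters in 19.6% and CpG island-like in 13.5%, against 5.68% and 3.11% of members with it.

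**Figure D5:**
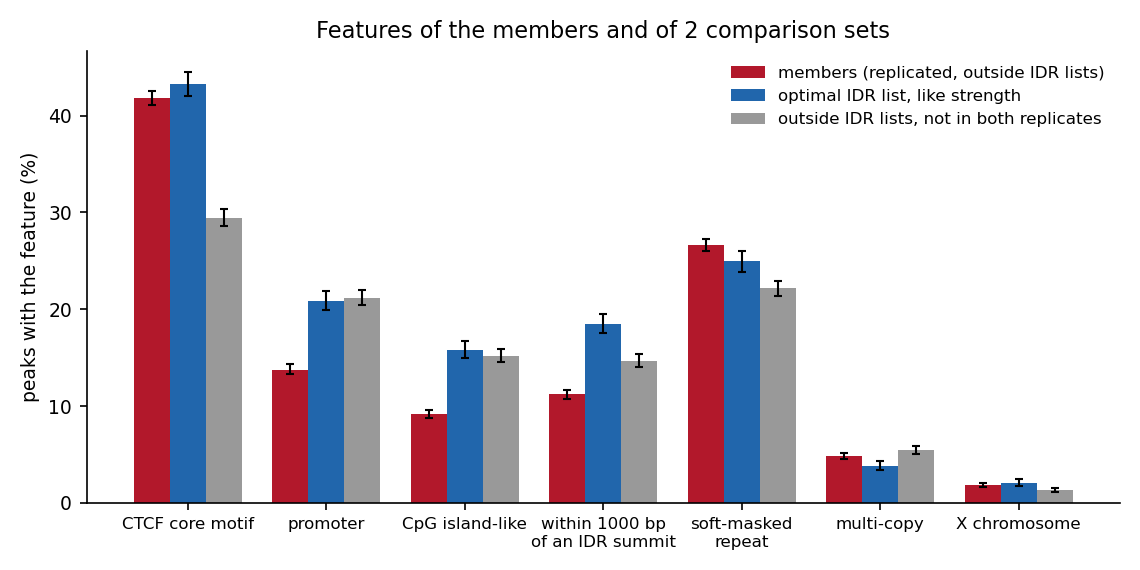
Share of peaks (vertical axis, %) with each of 7 features for members, like-strength optimal-list peaks and unreplicated peaks, with 95% Wilson intervals. Over all strengths, members stand at 13.8% for promoters and 9.13% for CpG island-like windows, below both other sets, and at 26.6% for soft-masked summits, above both.

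Letters of other factors were counted in the 50 bases on each side of the summit, on both strands, and a match is a description and not a bound site. GGGCGGGG, read by the Sp and KLF family, was found at 0.944% of members, 4.13% of promoter members and 0.810% of windows 1000 bp away. CCGGAAG, read by ETS factors, was found at 0.763%, 2.68% and 0.516% of the same windows, and GCGCATGC, read by NRF1, at 0.405%, 0.894% and 0.188%. Like-strength and unreplicated peaks had GGGCGGGG at 1.38% and 1.44%, CCGGAAG at 1.25% and 1.22%, and GCGCATGC at 0.316% and 0.317%. CAGCTG, an E-box of proneural factors, was found at 6.35% of members, 6.69% of like-strength peaks, 7.11% of unreplicated peaks and 4.87% of windows 1000 bp away from members. TAATTA, a homeobox core, was found at 1.46% of members, 1.11% of like-strength peaks, 1.47% of unreplicated peaks and 2.80% of windows 1000 bp away. In the same order AP-1's TGANTCA was found at 2.74%, 2.10%, 2.60% and 2.91%, and YY1's AANATGGC at 2.07%, 2.26%, 1.83% and 1.87%.

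The strongest promoter members are shown with sequence because they include both kinds, with and without a core match. The summit and 40 bases on each side are read on the plus strand, and capitals mark the core match where there is one.
Tuba4a promoter, chr1:75219712-75219792, plus strand: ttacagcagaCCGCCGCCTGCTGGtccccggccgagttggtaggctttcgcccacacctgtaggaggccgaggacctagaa
Smarcc2 promoter, chr10:128459151-128459231, plus strand: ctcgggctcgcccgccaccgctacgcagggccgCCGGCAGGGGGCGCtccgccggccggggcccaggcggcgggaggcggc
Cnnm1 promoter, chr19:43440246-43440326, plus strand: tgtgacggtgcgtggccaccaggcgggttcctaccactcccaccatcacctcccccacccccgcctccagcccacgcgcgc

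At Cnnm1, of a family linked to magnesium transport, the member 150 bp from the start had 43.3 in the pooled list, 37.5 in replicate 1 and 7.03 in replicate 2. Dusp8, a phosphatase of MAP kinases, had 40.8 with 13.6 in replicate 1 and 29.4 in replicate 2. Tuba4a, an alpha-tubulin, had 40.7 with 32.8 and 8.71, and its core match had 1 mismatch. Replicate 1 was higher at Cnnm1 and Tuba4a, and replicate 2 at Dusp8. The members at Cnnm1, Dusp8 and Tuba4a lay 988, 425 and 370 bp from the summits of IDR peaks of 28.7, 81.0 and 71.9. The promoter members named next lay 1478 bp or more from an IDR summit.

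Syt8, of the synaptotagmin family, had 40.1 with 23.6 and 10.6. Atxn7l3 and Atxn7, both subunits of the SAGA chromatin complex, had 38.6 with 7.65 and 25.3 and 37.5 with 30.5 and 5.33. Il6ra, the interleukin 6 receptor, had 38.5 with 30.3 and 5.51. Replicate 1 led at 3 of these 4 promoters.

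Epha10, an ephrin receptor, had 38.2 with 13 and 23.3. Smarcc2, a core subunit of the BAF remodelling complex, had 38.2 with 7.76 and 33.1 and a match of 1 mismatch whose centre lay 0.5 bp from the summit. Rragc, a GTPase that signals amino acid supply, had 36.3 with 24.4 and 9.67. All 10 of these promoter members had 5.33 or more in each replicate, and none had 15 or more in both.

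The members with the best motif that are printed above had pooled values from 25.5 to 36.8. The Stab2 intron site, in a scavenger receptor gene, had 36.8 in the pooled list with 26.1 in replicate 1 and 9.85 in replicate 2. The site in Cdh13, an atypical cadherin, had 27.9 with 22.6 and 4.85. The Pik3r6 site had 26.9 with 9.59 and 17.2. The Gm11077 promoter site had 25.9 with 8.79 and 17, and the site near Moxd2 25.8 with 19.6 and 5.07. The sites near the kinase gene Jak2 and in Eif3b, of the translation initiation machinery, had 25.7 with 8.77 and 15.2 and 25.5 with 17.3 and 8.21. A perfect core was thus found with either replicate leading.

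Over all strengths, members lay within 1000 bp of an IDR summit less often than like-strength and unreplicated peaks did. The nearest IDR summit was a median of 7289 bp away (200 to 1464222), and for 1909 members (11.2%) it was within 1000 bp, against 13.6% of all pooled peaks of 12 or more. Like-strength peaks had another IDR summit that near in 18.5% (difference −7.32 points, −8.40 to −6.27) and unreplicated peaks in 14.7% (difference −3.48, −4.30 to −2.68). Members and unreplicated peaks cannot overlap an IDR peak by the rule, while like-strength peaks can have another IDR summit at any distance. The first difference thus partly reflects the rule, and the size of that part was not tested. Between 20 and 30 the difference from optimal-list peaks held 0 (−1.44, −3.01 to 0.234). The motif was found at 27.1% of members with such a neighbour and at 43.7% of the others. A further 586 members (3.44%) lay over 100000 bp from every IDR summit, and 43.9% of them had the motif.

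Among 21827 protein-coding genes, 2365 had a member within 1000 bp of a transcript start, a background of 10.8%, and 8038 (36.8%) had an optimal-list peak there. Of the 2365 genes, 1025 also had a peak of an IDR list at a start and 1340 (56.7%) had the member alone. The gene lists below were counted against this background with no test of enrichment.

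Neuronal activity and synapse genes had a member at 11 of 30 starts (36.7%, 21.9 to 54.5, against 10.8% of all genes), and 18 of the 30 had an optimal-list peak. Npas4, a transcription factor induced by neuronal activity, had a pooled value of 26.1 with 24.4 in replicate 1 and 4.15 in replicate 2. Grin2b, an NMDA receptor subunit, had 25.7 with 8.33 and 16.8. An IDR peak of 262 also lay at a Grin2b start, with its summit 1342 bp from the member. Syt1, the calcium sensor of synaptic vesicles, had 20.96 with 8.61 and 10.9, a core match with 2 mismatches and no IDR peak at its start, the nearest lying 276614 bp away.

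Forebrain transcription factor genes had a member at 5 of 30 starts (16.7%, 7.34 to 33.6) and axon guidance genes at 5 of 30. Bcl11a, a zinc-finger gene of cortical neurons, had 32.2 with 25.2 in replicate 1 and 6.51 in replicate 2. Dlx1, a homeobox gene of interneuron precursors, had 15.95 with 10.95 and 5.78. Among guidance genes, the receptor Epha4 had 30.3 with 21.2 and 9.56, the ligand Efna5 18.5 with 11.2 and 6.97, and the semaphorin receptor Nrp2 17.1 with 13.1 and 2.82. Replicate 1 led at all 5 of these genes, and 27 of the 30 guidance genes had an optimal-list peak at a start. IDR peaks at starts of Bcl11a, Epha4 and Nrp2 reached 133.7, 20.4 and 20.5, while Dlx1 and Efna5 had none there.

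CTCF and cohesin genes had a member at 4 of 19 starts, and 3 of these 4 had no IDR peak there. Maz, a zinc-finger gene, had 16.1 with 6.09 in replicate 1 and 9.35 in replicate 2 and a core match with 1 mismatch. That member lay in coding sequence of Kif22, 957 bp from the Maz start. The cohesin loader gene Mau2 had 16.04 with 5.91 and 10.1. The member there lay within Sugp1, whose start, 746 bp away, was the nearest. Esco2, which acetylates cohesin, had 14.9 with 8.47 and 5.34. Housekeeping genes had a member at 6 of 30 starts, led by Pgk1, of glycolysis, with 30.8 and replicate values of 10.1 and 21.4. Imprinted genes had a member at 2 of 30 starts, Snrpn with 14.8 (3.33 and 9.39) and Gnas with 12.6 (3.78 and 8.08). Gnas also had an IDR peak of 172 at a start, and Snrpn had none.

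Clustered protocadherin genes, which give neurons their surface identity and are chosen through CTCF bound at their promoters, had a member at 10 of 56 starts (17.9%, 10 to 29.8). Of these, 9 had no IDR peak at the start, while 40 of the 56 genes had an optimal-list peak. Pcdhb2 had 20.1 with 8.09 in replicate 1 and 11.3 in replicate 2, Pcdhb20 had 18.6 with 7.74 and 9.57, and Pcdhb14 had 17.1 with 11.5 and 4.78. Olfactory receptor genes, the odour sensors of the nose, had a member at 3 of 1133 starts (0.265%, 0.0901 to 0.776), led by Olfr304 with 15.7. Genes of glia, microglia and vessels had a member at 0 of 30 starts, which allows a share of up to 11.4% by the Wilson interval, and 8 of the 30 had an optimal-list peak.

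Along the genome the members followed the density of the optimal list. Autosomes held 6.99 members per Mb, from 5.22 on chromosome 3 to 10.4 on chromosome 11, the chromosome that also had the most optimal-list peaks per Mb, 34.8. For every 100 optimal-list peaks there were 27.1 members on chromosome 19 and 34.5 on chromosome 12, the lowest and highest autosomes. The X chromosome held 305 members, 1.87 per Mb and 23.4 per 100 optimal-list peaks. It held 2.07% of all pooled peaks of 12 or more. Its share of 1.79% of members did not differ from the 2.04% of like-strength peaks beyond counting error (difference −0.250 points, −0.672 to 0.134), but was above the 1.32% of unreplicated peaks (difference 0.468, 0.171 to 0.756). The interval from like-strength peaks lay below 0 without replicate 2 (−0.418 points, −0.853 to −0.0343) and with summits within 100 bp (−0.377, −0.801 to −0.00228). Within the 3 bands up to 30 it held 0, and the excess over unreplicated peaks excluded 0 between 12 and 15 (0.431 points, 0.0457 to 0.817). The motif was found at 53.1% of members on X.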

How the data were processed

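Peak lists of CTCF ChIP-seq (mm10) were used as deposited. The authors' signal value is the peak strength in each list, on a scale that no source states, and the −log10 q-value is as deposited. Per the file headers and labels, the pooled list was called on both replicate alignments with 1 control file. The aligner and caller were not given in the sources used here. Summits are the start plus the deposited offset, in bases.

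Members and gene lists were chosen with earlier results of these data known. Sequence came from RefSeq's GRCm38 genome (the mm10 assembly) and genes from GENCODE release M21. The CTCF core consensus of 14 bases was searched with at most 2 mismatches. Shares have 95% Wilson intervals and differences 95% Newcombe intervals, with no p-values, since sites are not replicates. The repeat, ribosomal RNA, both-replicate and chromosome-end descriptions were chosen after the data had been seen.

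Sites named in the text were the 10 strongest members, the 10 genes with the strongest promoter members, the 8 best motif matches, the 3 largest replicate ratios each way, the 3 peaks each side of the threshold, up to 3 genes a list, and the strongest multi-copy member. One gene of a list and 1 motif match named by this rule are not reported here. Of the strongest members, that in an intron of 9330198I05Rik had a pooled value of 52.4 and that in an intron of Ms4a15 had 41.8. One between genes, 606075 bp from the nearest protein-coding start, that of Apob, had 43.6. Functions were tested on simulated sites. Tools were Python 3.11.15, numpy 2.4.6, pandas 2.3.3, scipy 1.17.1, matplotlib 3.10.9 and blastn 2.17.0.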

Additional observations from a re-analysis of the deposited data

How the results depend on the processing

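No paired analysis was possible because the series has 1 group. A signal value of 10 or more gave shares of 38.6% for the motif, 12.6% for promoters and 8% for CpG islands. A value of 15 or more left 9033 members, with 46.0% motif, 15.2% promoter, 11.8% beside an IDR site and 10.8% CpG island-like. Replicate summits within 25 bp left 10532 members, with 43.5% motif, 13.1% promoter, 27.5% soft-masked and 8.44% CpG island-like. Within 100 bp these were 39.1%, 15.1%, 25.7% and 10.2%, with 11.7% beside an IDR site. Outside the optimal list alone, shares were 43.3% motif, 14.4% promoter, 4.51% multi-copy and 9.72% CpG island-like. Over 1000 bp from every IDR summit they were 43.7% motif, 10.3% promoter, 27.7% soft-masked and 6.82% CpG island-like. A pooled −log10 q-value of 2 or more gave 42.8% motif. The motif share was 12.3% with at most 1 mismatch, 71.2% with at most 3, 31.6% within 25 bp and 46.5% within 100 bp. Promoters of 500 and 5000 bp held 9.73% and 25.9%, and IDR summits within 500 and 5000 bp 2.20% and 40.5%. Soft-masking of at least 50% of the bases gave 23.7%, and a copy of any of 3 stretches 11.5%. A summit was also asked for in 1 replicate alone (without replicate 1 and without replicate 2), with pooled values and IDR lists unchanged. Members then numbered 21632 to 22728, the motif share was 38.8% to 39.5% and the promoter share 15.03% to 15.6%. Shares were 11.93% to 12.04% beside an IDR site, 25.2% to 26.1% soft-masked and 4.84% to 5.11% multi-copy. They were 10.1% to 10.6% CpG island-like and 1.68% to 1.70% on the X chromosome. The motif difference from like-strength peaks, −1.42 points, turned to 0.236 with summits within 25 bp and to 0.648 over 1000 bp from IDR summits. Its interval lay below 0 at a signal value of 10 or more (−2.76), with summits within 100 bp (−3.42), outside the optimal list alone (−3.50), without replicate 1 (−3.06) and without replicate 2 (−3.69). The soft-masked difference from like-strength peaks, 1.69 points, held 0 under 4 alternatives at 0.590 to 1.18, and the X difference from unreplicated peaks, 0.468, held 0 at 15 or more (0.454) and within 100 bp (0.210). The multi-copy difference from unreplicated peaks, −0.580 points, was −1.268 without replicate 2 and turned to 0.107 without replicate 1. It held 0 at 15 or more (−0.607), within 25 bp (−0.415) and within 100 bp (−0.0459), and the cause of these changes was not tested. Of the alternatives for differences between sets, 105 kept direction and call, 7 gained and 9 lost the call, and 3 turned direction. Read depth is not given, so no limit from it could be computed.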
